A study of Homo sapiens with 27 samples.

Results

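The genes described here are the activin subunits INHBA and INHBB, their binding proteins FST and FSTL3, the BMP ligands BMP2 and BMP4, and the 4 ID genes (ID1, ID2, ID3 and ID4). They were taken by symbol from a table of estimated RNA-seq counts. The 10 genes occupied 11 of its 40487 rows, because ID3 had 2 rows with identical values, and rows sharing a symbol were summed to give 36536 genes. A filter on low counts left 15575 genes for testing, 9 of the 10 among them, and ID4 was described from its counts only. The cells were MCF10A, an established non-tumorigenic line of human breast epithelium. They were grown with 20 ng/ml epidermal growth factor (EGF) and moved to growth factor-free medium for 18 h. EGF, oncostatin M (OSM) and TGF beta (TGFB) were then given in fresh medium of that kind, each at 10 ng/ml. The 9 groups were T0 (collected at 0 h), PBS (the control at 24 h), EGF, OSM, TGFB, EGF+OSM, EGF+TGFB, OSM+TGFB and EGF+OSM+TGFB, each of the last 7 also at 24 h. Every group had 3 libraries, 27 in all. All groups, T0 and PBS included, shared the line, the earlier growth in EGF and the first 18 h without growth factors. T0 was collected after those 18 h, while PBS stayed without ligand for 24 h more. The labels give replicate numbers but do not say whether replicates were separate cultures, so the p-values measure the spread between these libraries, which may be technical.

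Activins are dimers of inhibin beta subunits. INHBA encodes the subunit of activin A and INHBB that of activin B. They signal through type II and type I receptors to SMAD2 and SMAD3, the same SMAD proteins that TGF beta uses, while BMPs act through SMAD1, SMAD5 and SMAD9. Follistatin (FST) and the follistatin-like protein FSTL3 bind activins outside the cell and block them. The ID genes are well-known targets of BMP signalling, and their products pair with E proteins (TCF3, TCF4 and TCF12), which then cannot bind DNA. In the breast epithelium, ID proteins have been linked to growth and to restrained differentiation.

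The sequence just before the RefSeq start site is shown for 4 of these genes. INHBA and FST are the ligand and the antagonist on which the activin results turn, and ID1 and ID3 are members of 1 family whose levels under OSM differed. The RefSeq promoter table (GRCh38.p14) held 9 of the 10 genes, all except BMP2. Sequences run 5′ to 3′ on the strand of the gene and end at or just before the start site, with capitals marking matches to the motifs listed after them. The INHBA stretch is chr7:41703091-41703340 (minus strand), within the longer span that GENCODE gives the gene.
INHBA: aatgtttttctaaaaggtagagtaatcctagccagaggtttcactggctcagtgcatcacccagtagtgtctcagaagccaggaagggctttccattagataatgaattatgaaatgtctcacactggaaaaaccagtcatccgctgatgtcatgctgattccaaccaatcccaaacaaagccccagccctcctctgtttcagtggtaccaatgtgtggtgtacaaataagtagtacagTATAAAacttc
The FST stretch is chr5:53480379-53480625 (plus strand).
FST: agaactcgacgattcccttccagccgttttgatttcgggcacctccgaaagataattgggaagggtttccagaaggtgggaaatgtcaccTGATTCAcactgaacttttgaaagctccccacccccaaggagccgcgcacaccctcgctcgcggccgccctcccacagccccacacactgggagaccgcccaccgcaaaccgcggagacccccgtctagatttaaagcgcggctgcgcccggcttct
The ID1 stretch is chr20:31605039-31605282 (plus strand).
ID1: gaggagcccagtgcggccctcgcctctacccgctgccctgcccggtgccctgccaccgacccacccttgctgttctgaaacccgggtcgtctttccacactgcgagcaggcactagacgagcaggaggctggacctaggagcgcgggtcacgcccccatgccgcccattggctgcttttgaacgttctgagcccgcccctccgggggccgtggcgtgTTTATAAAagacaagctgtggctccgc
The ID3 stretch is chr1:23559502-23559751 (minus strand).
ID3: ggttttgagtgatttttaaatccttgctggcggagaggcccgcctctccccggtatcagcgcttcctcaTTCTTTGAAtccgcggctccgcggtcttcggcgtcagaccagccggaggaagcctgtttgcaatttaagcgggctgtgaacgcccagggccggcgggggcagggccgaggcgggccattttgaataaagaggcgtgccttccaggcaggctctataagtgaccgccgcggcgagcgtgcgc

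Both strands of the 250 bases before each start were searched for 6 short motifs. These were the AP-1 site TGANTCA (in 6.57% of 35116 RefSeq promoter windows), the CRE TGACGTCA (1.65%), the STAT site TTCNNNGAA (6.57%), the GC-rich SMAD site GGCGCC (16.4%), the TATA box TATAAA (10.7%) and the E-box CACGTG (6.34%). FST held an AP-1 match, TGATTCA, at bases -160 to -154 from its start. ID3 held a STAT match, TTCTTTGAA, at -181 to -173. INHBA held TATAAA at -11 to -6, and ID1 held it on both strands in overlapping places between -33 and -26. The windows of some members not shown held matches too, among them the GC-rich SMAD site in FSTL3, BMP4 and INHBB and the E-box in BMP4. The ID2 window held no match to any of the 6 motifs. These letter matches describe the windows only, and their link to any response was not tested.

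The median library held 39.5 M (mega) counts, the shallowest 30.1 M and the deepest 52.9 M. Levels are CPM, counts per M counts of the scaled library size. All 10 epithelial markers examined were detected, with a summed level of 12168 to 28099 CPM. Of the 7 fibroblast markers, COL1A1 and DCN were well detected, at up to 118 and 103 CPM, and PDGFRB reached 49 counts in a library. COL1A2, COL3A1, PDGFRA and LUM reached at most 14, 2, 9 and 14 counts. Of the 4 immune markers, CD68 was present at 20.2 to 50.4 CPM and CD14 at 1.70 to 79.3 CPM, while PTPRC reached at most 10 and CD3E at most 5 counts. The immune sum was 54.4 to 61.2 CPM in PBS, 26.1 to 29.8 with EGF and 96.2 to 119 with OSM, its highest group. Of the 3 endothelial markers, PECAM1, VWF and CDH5 reached at most 93, 144 and 6 counts. In bulk RNA, fewer cells making a transcript and less transcript per cell cannot be told apart. The biological coefficient of variation was 7.83%. Every adjusted p is from the quasi-likelihood test of edgeR, corrected by the Benjamini-Hochberg method over the 15575 genes, and values under 0.05 are called. Comparisons with PBS share the same 3 PBS libraries.

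INHBA (ENSG00000122641, chromosome 7, 41667168 to 41705834, minus strand) rose with EGF and with TGFB, was highest with both together, and overlapped PBS with EGF+OSM. Its PBS libraries held 1.32, 1.81 and 2.03 CPM. The EGF libraries held 11.6, 14.2 and 15.6 CPM, the TGFB libraries 11.6, 12.7 and 14.7 CPM, and the EGF+TGFB libraries 41.5, 52.0 and 54.3 CPM. The EGF and TGFB libraries overlapped each other, all lay above PBS, and all lay below EGF+TGFB. The log2 fold change against PBS was 3.02 ± 0.19 (SE) for EGF (adjusted p = 8.6e-13), 2.93 ± 0.19 for TGFB (1.3e-11) and 4.85 ± 0.19 for EGF+TGFB (8.6e-17).

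OSM lowered INHBA in every background in which it was added. The OSM libraries held 0.887, 0.968 and 1.24 CPM, all below PBS (log2 fold change -0.73 ± 0.26 SE, adjusted p = 0.016). That call was lost without PBS replicate 1 (adjusted p = 0.077) or OSM replicate 2 (0.075). On top of EGF the fall was larger. The EGF+OSM libraries held 0.834, 1.61 and 1.95 CPM and overlapped PBS, OSM and T0. The log2 change on adding OSM to EGF was -3.24 ± 0.20 (SE; adjusted p = 3.8e-12). The OSM+TGFB libraries held 6.43, 7.35 and 7.84 CPM, a log2 change of -0.85 ± 0.17 from TGFB alone (adjusted p = 1.2e-04). With all 3 ligands INHBA stood at 5.20, 5.28 and 6.45 CPM, a log2 change of -3.13 ± 0.17 from EGF+TGFB (adjusted p = 6.5e-13). PBS and T0 were not called different, with T0 at 1.36, 1.77 and 1.84 CPM. From high to low, INHBA was ordered EGF+TGFB, then EGF and TGFB (overlapping), then OSM+TGFB and EGF+OSM+TGFB (overlapping). PBS, T0, EGF+OSM and OSM came last, each overlapping its neighbour. INHBA shares exon sequence with the opposite-strand gene INHBA-AS1. The strand setting of the authors' counting is not given in the sources used here, so reads of the pair might not be separated.

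INHBB (ENSG00000163083, chromosome 2, 120346136 to 120351803, plus strand) was near its detection limit and behaved differently from INHBA. It held 38, 52 and 37 counts in PBS, 50, 73 and 45 with TGFB, and 22, 21 and 9 at T0. In each of the 6 groups given EGF or OSM it fell to at most 14 counts per library, and 4 of those 18 libraries held 0. The OSM libraries held 0, 8 and 0 counts, and the EGF libraries 4, 14 and 2. INHBB was called lower than PBS in all 6 groups, with adjusted p from 8.8e-06 (EGF+OSM) to 3.7e-04 (EGF). The TGFB libraries, at 1.23 to 1.75 CPM, lay above all PBS libraries, at 0.904 to 1.12 CPM, but the difference was not called (log2 fold change 0.52 ± 0.52 SE, adjusted p = 0.47). EGF+TGFB held 1, 9 and 4 counts, so the level under TGFB was not kept once EGF was present (adjusted p = 3.9e-05 for EGF added to TGFB). Against T0, PBS was called higher (log2 fold change 1.45 ± 0.56 SE, adjusted p = 0.047), and this call was lost in 19 of 34 alternative analyses, among them without any 1 T0 or PBS library (adjusted p 0.059 to 0.17). INHBB had its highest mean with TGFB and its lowest with EGF+OSM, as did the summed fibroblast markers (204 to 214 and 13.1 to 15.3 CPM). The 2 differed in OSM+TGFB. There the marker sum, at 176 to 191 CPM, lay above PBS (129 to 133 CPM), while INHBB held 4, 1 and 3 counts. The part of these markers in the result was not tested.

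**Figure D1:**
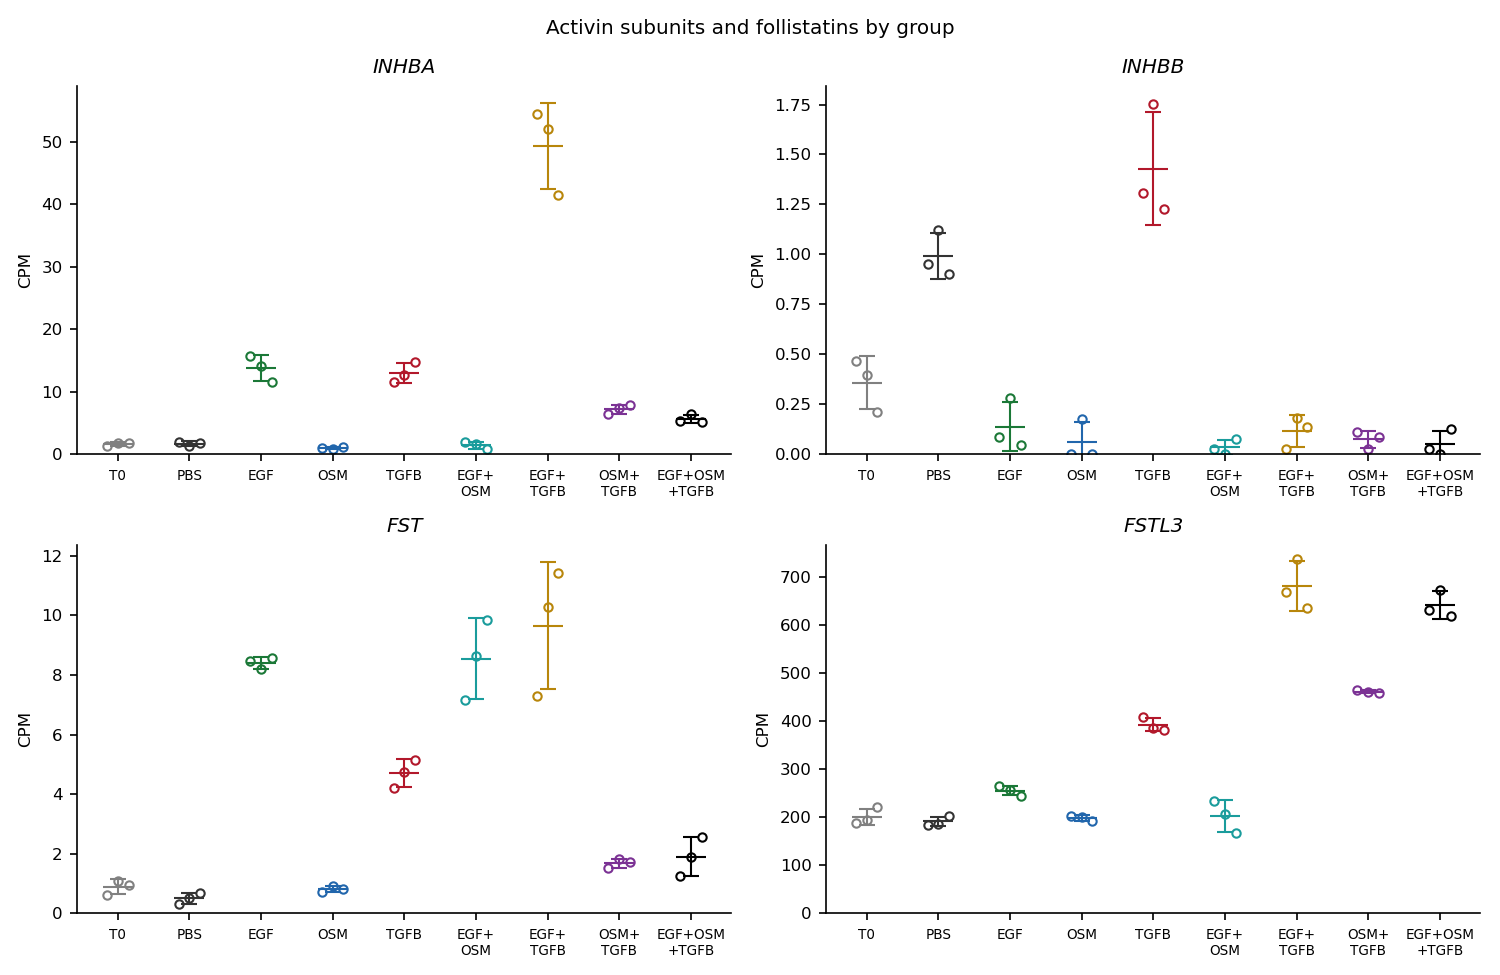
INHBA and INHBB in CPM (vertical axes) in the 9 groups (horizontal axis). Open circles are libraries, and the horizontal mark with bars is the mean ± SD (n = 3), with bars that would pass below 0 ended there. INHBA peaks with EGF+TGFB at 49.3 CPM and is 1.46 CPM with EGF+OSM, while INHBB is above 0.9 CPM in the PBS and TGFB libraries only.

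FST (ENSG00000134363, chromosome 5, 53480626 to 53487134, plus strand) rose with EGF and with TGFB, and unlike INHBA it was not called lower when OSM was added to EGF. The PBS libraries held 0.325, 0.518 and 0.684 CPM. The EGF libraries held 8.18, 8.48 and 8.56 CPM (log2 fold change 4.03 ± 0.25 SE, adjusted p = 1.7e-13). The TGFB libraries held 4.20, 4.75 and 5.16 CPM (log2 fold change 3.20 ± 0.25 SE, adjusted p = 1.6e-10). The 2 groups lay apart from each other and from PBS. The EGF+OSM libraries, at 7.15, 8.64 and 9.86 CPM, and the EGF+TGFB libraries, at 7.29, 10.3 and 11.4 CPM, overlapped the EGF libraries and each other. Adding OSM to EGF gave a log2 change of 0.03 (95% interval -0.37 to 0.42), and adding TGFB to EGF gave 0.20 (95% interval -0.20 to 0.60), neither of them called.

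The direction of the TGFB effect on FST depended on the other ligands. On PBS it was a rise to 4.71 ± 0.481 CPM (SD, n = 3), and on OSM a rise from 0.810 ± 0.0990 to 1.68 ± 0.149 CPM (adjusted p = 0.0016). On EGF+OSM it was a fall, from 8.55 ± 1.36 to 1.90 ± 0.662 CPM. All 3 libraries with the 3 ligands, at 1.25, 1.88 and 2.57 CPM, lay below all 3 EGF+OSM libraries. That fall was -2.19 ± 0.22 on the log2 scale (SE; adjusted p = 2.5e-09). Likewise OSM gave no called change on EGF but lowered FST on EGF+TGFB (log2 change -2.36 ± 0.22 SE, adjusted p = 3.5e-09). OSM added to TGFB also lowered it (log2 change -1.48 ± 0.22 SE, adjusted p = 2.6e-06). OSM alone held 0.712, 0.810 and 0.910 CPM, all above PBS, but the difference missed the call (log2 fold change 0.67 ± 0.30 SE, adjusted p = 0.056) and passed it in 8 of 34 alternative analyses, among them without PBS replicate 3 (0.024). FST was lower in PBS than in T0 (0.617, 0.956 and 1.10 CPM; log2 fold change -0.80 ± 0.29 SE, adjusted p = 0.033), a call lost without any 1 of T0 replicates 2 and 3 or PBS replicates 1 and 2 (adjusted p 0.077 to 0.17). The order was EGF+TGFB, EGF+OSM and EGF (overlapping), then TGFB, then EGF+OSM+TGFB and OSM+TGFB (overlapping), then T0 and OSM (overlapping), then PBS.

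FSTL3 (ENSG00000070404, chromosome 19, 676392 to 683392, plus strand) followed TGFB. The PBS libraries held 184, 187 and 203 CPM and the TGFB libraries 382, 386 and 408 CPM (log2 fold change 1.04 ± 0.08 SE, adjusted p = 1.3e-10). EGF raised it less, to 245, 257 and 264 CPM (log2 fold change 0.42 ± 0.08 SE, adjusted p = 4.7e-05). EGF+TGFB held 636, 669.5 and 738 CPM, and the 3 ligands together 619, 631 and 674 CPM. These last 2 groups overlapped, and both lay above OSM+TGFB at 459, 459.7 and 465 CPM. OSM gave no called change alone (198 ± 5.66 CPM, SD, n = 3). Added to TGFB, it raised FSTL3 slightly (log2 change 0.23 ± 0.08 SE, adjusted p = 0.014), a call lost with upper-quartile scaling (0.066). Added to EGF, it lowered FSTL3. The EGF+OSM libraries spread from 168 to 233 CPM and overlapped PBS, from which they were called different only without EGF+OSM replicate 3 (adjusted p = 0.011). The change from EGF was -0.34 ± 0.08 on the log2 scale (SE; adjusted p = 0.0017). Each of the 4 groups given TGFB therefore lay above each of the 5 without it.

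The FST level relative to INHBA is given as a log2 ratio of their CPM in the same library. Transcript length does not cancel in the ratio itself, only in its differences between groups. EGF+OSM stood apart, with ratios of 1.87, 2.43 and 3.56 in its libraries. In the other 8 groups no library exceeded 0.04, a value found in an OSM library, and the lowest ratio was -2.90 in EGF+TGFB. Group means were -1.80 ± 0.73 in PBS, -0.70 ± 0.24 in EGF, -1.46 ± 0.05 in TGFB and -1.63 ± 0.55 with all 3 ligands (SD, n = 3). This is a description of the same counts, and the ratio itself was not tested.

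BMP2 (ENSG00000125845, chromosome 20, 6767686 to 6780246, plus strand), a BMP ligand, was lowered by EGF and by OSM, and TGFB raised it on top of either. The PBS libraries held 14.4, 14.5 and 15.3 CPM. The EGF libraries held 5.19, 5.58 and 5.65 CPM (log2 fold change -1.43 ± 0.11 SE, adjusted p = 1.3e-11). The OSM libraries held 3.97, 4.50 and 5.26 CPM (log2 fold change -1.69 ± 0.11 SE, adjusted p = 1.6e-12). EGF and OSM overlapped, and the EGF+OSM libraries, at 3.26, 3.75 and 3.76 CPM, lay below both. TGFB libraries, at 17.1, 17.8 and 18.1 CPM, all lay above PBS, but the log2 fold change was only 0.26 ± 0.10 (SE; adjusted p = 0.049) and its call was lost in 25 of 34 alternative analyses, among them without any 1 PBS or TGFB library (0.066 to 0.12).

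TGFB brought BMP2 back toward the PBS level in the presence of the other ligands. EGF+TGFB held 11.3, 14.2 and 15.1 CPM and OSM+TGFB 12.5, 12.9 and 13.0 CPM. Neither pair was called different from PBS (log2 fold changes -0.11, 95% interval -0.33 to 0.11, and -0.20, 95% interval -0.42 to 0.02). OSM+TGFB was called lower in 3 of 34 alternative analyses, among them without EGF+TGFB replicate 3 (adjusted p = 0.043). TGFB raised BMP2 by a log2 change of 1.31 ± 0.11 on EGF (SE; adjusted p = 3.2e-10), 1.48 ± 0.11 on OSM (8.2e-11) and 1.52 ± 0.12 on EGF+OSM (3.9e-11). With all 3 ligands BMP2 stood at 8.59, 10.3 and 12.1 CPM, below every PBS library. T0 held 7.34, 7.82 and 8.05 CPM, so BMP2 rose over the 24 h without ligand (log2 fold change 0.93 ± 0.11 SE, adjusted p = 2.2e-07). From high to low the order was TGFB, then PBS, EGF+TGFB and OSM+TGFB (overlapping in turn), then EGF+OSM+TGFB, T0, EGF and OSM (these 2 overlapping), and EGF+OSM. Markers of fibroblasts also had their highest and lowest levels in the groups where BMP2 did, which are those of INHBB and ID3 too. Their summed level was 204 to 214 CPM with TGFB, 176 to 191 with OSM+TGFB, 129 to 133 in PBS, 105 to 113 at T0 and 87.8 to 110.4 with OSM. It was 76.5 to 96.9 with EGF+TGFB, 50.1 to 59.4 with all 3 ligands, 30.9 to 35.9 with EGF and 13.1 to 15.3 with EGF+OSM. Of the 7 markers 5 passed the filter, and COL1A1 and DCN made up nearly all of the sum. Their part in the result was not tested.

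BMP4 (ENSG00000125378, chromosome 14, 53949736 to 53958761, minus strand), another BMP ligand, was barely detected. It held 5 to 30 counts per library, or 0.137 to 0.854 CPM, and neighbouring groups in its order all overlapped. Against PBS it was called with all 3 ligands only, at 8, 5 and 5 counts against 12, 22 and 14 in PBS (log2 fold change -1.07 ± 0.43 SE, adjusted p = 0.027). That call was lost in 4 of 34 alternative analyses, among them those without PBS replicate 2 (adjusted p = 0.12) or EGF+OSM+TGFB replicates 2 (0.058) or 3 (0.075). BMP4 shares exon sequence with an opposite-strand gene (ENSG00000287156), so at these counts the limit on strand given for INHBA bears on it as well.

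**Figure D2:**
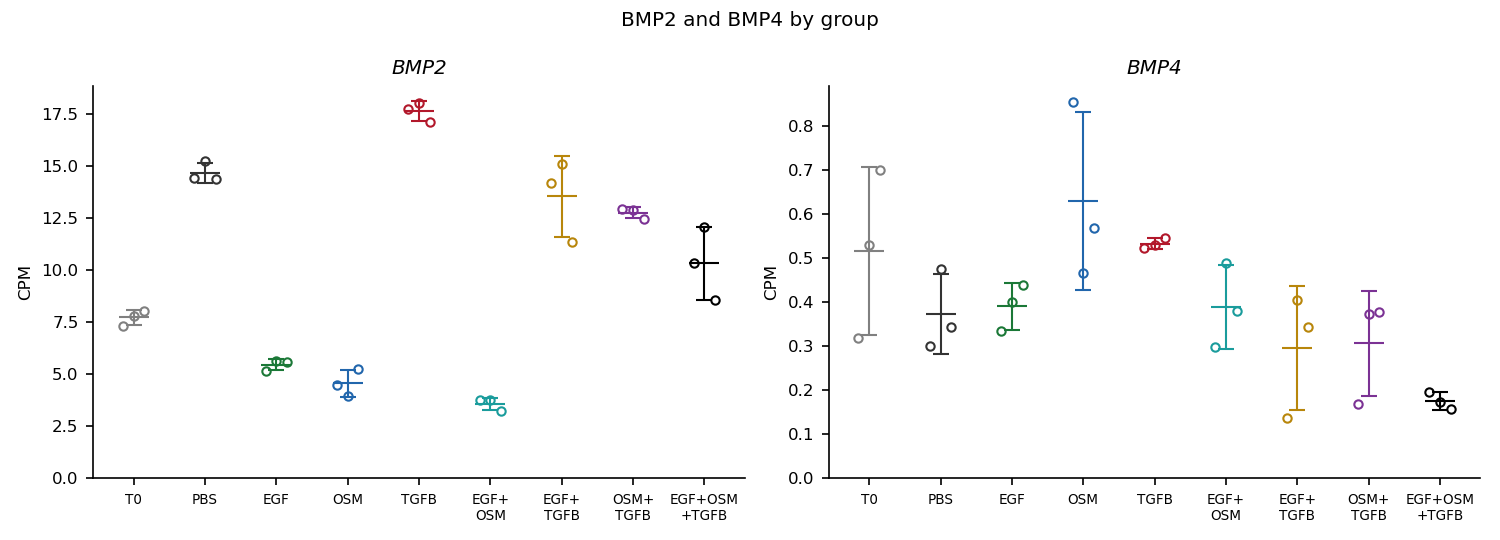
BMP2 and BMP4 in CPM (vertical axes) in the 9 groups (horizontal axis). Open circles are libraries and marks with bars the mean ± SD (n = 3). BMP2 is below 6 CPM in the EGF, OSM and EGF+OSM groups and above 8 CPM in the 4 groups given TGFB, and BMP4 stays under 1 CPM in all libraries.

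The ID genes did not move as a block. ID2 (ENSG00000115738, chromosome 2, 8678845 to 8684461, plus strand) fell most. In PBS the libraries held 52.1, 55.1 and 62.6 CPM, the EGF libraries 6.68, 8.10 and 9.66 CPM, and the OSM libraries 13.6, 14.3 and 17.4 CPM. All EGF and OSM libraries lay below all PBS libraries, and EGF lay below OSM. The log2 fold change was -2.79 ± 0.17 for EGF (SE; adjusted p = 7.4e-13) and -1.90 ± 0.16 for OSM (SE; adjusted p = 4.0e-10). The EGF+OSM libraries held 2.11, 2.28 and 2.56 CPM, EGF+TGFB 2.61, 3.42 and 3.67 CPM, and the 3 ligands together 1.94, 2.64 and 3.24 CPM. These 3 groups were the lowest and each overlapped its neighbour. TGFB alone held 31.8, 45.4 and 47.9 CPM, a small fall (log2 fold change -0.44 ± 0.15 SE, adjusted p = 0.024) that was lost without PBS replicate 3 (0.11) or TGFB replicate 1 (0.16). On top of EGF, TGFB lowered ID2 further (log2 change -1.34 ± 0.20 SE, adjusted p = 4.8e-06). ID2 was higher in PBS than in T0 (34.1, 42.2 and 44.8 CPM; log2 fold change 0.49 ± 0.15 SE, adjusted p = 0.013), a call lost without T0 replicate 1 (0.077) or PBS replicate 3 (0.068). From high to low the order was PBS (56.6 ± 5.39 CPM, SD, n = 3), then TGFB and T0 (overlapping), OSM, then OSM+TGFB (10.7 ± 1.33 CPM) and EGF (overlapping), and the 3 lowest groups. ID2 shares exon sequence with the opposite-strand gene ID2-AS1, with the limit given for INHBA.

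ID3 (ENSG00000117318, chromosome 1, 23557926 to 23559501, minus strand) stood lower with OSM than with EGF in every library, the opposite order to ID2. Because its 2 identical rows were summed, its level may count each read more than once, and the ID3 calls were the same with a single row. The PBS libraries held 173, 192 and 206 CPM, the OSM libraries 58.2, 65.5 and 78.4 CPM, and the EGF libraries 112, 128 and 129.6 CPM. OSM lay below EGF and EGF below PBS, with no overlap. The log2 fold change was -1.50 ± 0.10 for OSM (SE; adjusted p = 2.0e-12) and -0.63 ± 0.09 for EGF (SE; adjusted p = 2.0e-06). The EGF+OSM libraries held 22.2, 23.5 and 25.5 CPM, the lowest of all groups (log2 fold change -3.00 ± 0.10 SE, adjusted p = 1.0e-17). TGFB alone held 194, 224 and 228 CPM and was not called different from PBS (log2 fold change 0.18, 95% interval -0.02 to 0.37). The T0 libraries (212 ± 16.6 CPM, SD, n = 3) overlapped TGFB and PBS, EGF+TGFB (137 ± 9.84 CPM) overlapped EGF, and OSM+TGFB (71.0 ± 2.93 CPM) overlapped OSM. On EGF+OSM, TGFB raised ID3 to 37.6, 41.7 and 44.2 CPM (log2 change 0.79 ± 0.10 SE, adjusted p = 3.4e-07). The highest and lowest means of ID3 were also in the TGFB and EGF+OSM groups, where the summed fibroblast markers held 204 to 214 and 13.1 to 15.3 CPM. With OSM+TGFB that sum, at 176 to 191 CPM, lay above PBS (129 to 133 CPM), while ID3 lay below PBS. The part of these markers was not tested.

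ID1 (ENSG00000125968, chromosome 20, 31605283 to 31606515, plus strand) had the narrowest range of the 3 ID genes tested (group means spanning 1.31 log2 units) and was not called lower with OSM in any background. In PBS the libraries held 177, 216 and 237 CPM and the OSM libraries 201, 215 and 229.7 CPM, which lay inside the PBS range (log2 fold change 0.04, 95% interval -0.25 to 0.32). The EGF libraries held 92.1, 104 and 116 CPM, all below PBS (log2 fold change -1.01 ± 0.14 SE, adjusted p = 1.0e-06). Adding OSM to EGF raised ID1 to 136, 149.7 and 152 CPM (log2 change 0.49 ± 0.14 SE, adjusted p = 0.0085, or 0.052 without EGF replicate 1). Adding OSM to EGF+TGFB raised it from 87.2 ± 8.73 to 142 ± 10.5 CPM (SD, n = 3; adjusted p = 5.2e-04). On EGF, OSM thus moved ID1 and the other ID genes in opposite directions. On adding OSM to EGF, ID3 fell by 2.38 and ID2 fell by 1.81 on the log2 scale (adjusted p = 7.3e-15 and 2.9e-07). The order ran from OSM, PBS, OSM+TGFB (183 ± 20.0 CPM), T0 (166 ± 38.4 CPM), TGFB, EGF+OSM and EGF+OSM+TGFB, each overlapping the next, down to EGF and EGF+TGFB, which overlapped each other and lay apart from the rest. TGFB lowered ID1 slightly, to 151, 164 and 172 CPM (log2 fold change -0.37 ± 0.14 SE, adjusted p = 0.038), with a call lost without PBS replicates 2 (0.095) or 3 (0.18) or TGFB replicates 1 (0.13) or 2 (0.079).

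ID4 (ENSG00000172201, chromosome 6, 19837370 to 19842197, plus strand) was at the limit of detection. It held 31 counts in the 27 libraries together, 0 in 14 of them and at most 5 in any. In OSM+TGFB all 3 libraries held 0, which allows up to 3 counts over the group, or 0.0286 CPM, by counting error alone.

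The summed level of the 4 ID genes was 457 ± 51.9 CPM in PBS, 419 ± 58.4 at T0 and 419 ± 36.6 with TGFB (SD, n = 3). It was 298 ± 26.3 with OSM, 236 ± 21.8 with EGF, 228 ± 14.2 with EGF+TGFB and 172 ± 10.3 with EGF+OSM. EGF+OSM was the lowest group, but its rank below EGF+TGFB depends on counting ID3 over both of its identical rows. With ID3 counted over both rows, ID1 made up most of what was left in EGF+OSM, where ID1 stood at 146 ± 8.72 CPM.

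Counted over the 9 genes tested, EGF changed 8 against a background of 73.5% of all genes tested. INHBA, FST and FSTL3 were higher (background 34.9% called higher) and INHBB, BMP2, ID1, ID2 and ID3 lower (38.6% called lower). With an added limit of 2-fold, 6 of the 9 were called, against 27.5% of all genes. OSM changed 5 (background 63.4%), and all of them, INHBA, INHBB, BMP2, ID2 and ID3, were lower (29.8% called lower). By at least 2-fold, 4 were lower, against 10% of all genes called lower at 2-fold and 20.1% in either direction. TGFB changed 6 (background 35.6%), with INHBA, FST, FSTL3 and BMP2 higher (19.9%) and ID1 and ID2 lower (15.8%). Of these, INHBA, FST and FSTL3 passed 2-fold, all higher, against 4.08% of all genes called higher at 2-fold and 5.8% in either direction. The TGFB count was 3, the same 3 that passed 2-fold, without PBS replicate 3 or TGFB replicate 1. The share called by EGF is near that of all genes, and the size of the changes differed more. The median absolute log2 fold change was 1.43 over the 9 genes against 0.59 over all genes for EGF, 0.73 against 0.41 for OSM and 0.50 against 0.22 for TGFB. The genes were chosen with earlier results of these data known, so nothing particular to them is read from these sizes.

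In the combinations 6 of the 9 genes were called with EGF+OSM (background 77.2%), 7 with EGF+TGFB (73.7%), 6 with OSM+TGFB (66%) and 9 with all 3 ligands (74.4%). PBS against T0 called 4, FST lower and INHBB, BMP2 and ID2 higher (background 35.1%). The PBS against T0 count was 2 without T0 replicate 1, PBS replicate 2 or PBS replicate 3. With 9 genes, nothing particular to them is read from these shares.

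Departures from additivity were tested as the log2 fold change of a pair minus the sum of those of its single ligands, all against PBS, so 0 means that log2 fold changes add. For EGF+OSM, 4 of 9 genes departed (background 38.7%). The departure was -2.51 ± 0.34 for INHBA (SE; adjusted p = 1.8e-06), -0.88 ± 0.14 for ID3 and -0.39 ± 0.11 for FSTL3, all below the sum, and 1.08 ± 0.17 for BMP2, above it. ID2 showed no called departure there (0.09, 95% interval -0.47 to 0.65), although its fall was the deepest among the ID genes tested.

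For EGF+TGFB, 5 of 9 departed (background 29.8%). The departure was -3.00 ± 0.32 for FST (SE; adjusted p = 2.2e-07), -1.09 ± 0.25 for INHBA and -0.90 ± 0.25 for ID2, all below the sum. It was above the sum for BMP2 (1.05 ± 0.15) and FSTL3 (0.38 ± 0.11). INHBA was thus highest in this pair and yet less than the sum of the single responses. For OSM+TGFB, 3 of 9 departed (background 23.3%): FST by -2.16 ± 0.38 (SE; adjusted p = 1.6e-04), BMP4 by -1.53 ± 0.53 (0.038) and BMP2 by 1.22 ± 0.15 (3.9e-06). INHBA showed no called departure there (-0.12, 95% interval -0.78 to 0.54). The BMP4 departure was lost in 9 of 34 alternative analyses, among them without any 1 TGFB library, PBS replicates 1 or 3, OSM replicates 1 or 3, or OSM+TGFB replicate 1 (adjusted p 0.051 to 0.11).

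The 3-way departure is what remains of the effect of the 3 ligands once the singles and pairs are subtracted. It was called for 3 of 9 genes against 3.9% of all genes tested: BMP2 at -1.01 ± 0.22 (SE; adjusted p = 0.0095), ID2 at 1.56 ± 0.39 (0.024) and ID3 at 0.74 ± 0.19 (0.029). ID3 lost its call in 14 of 34 alternative analyses and ID2 in 4. For ID3 these included leaving out replicates 1 or 2 of PBS, 2 or 3 of EGF, 2 or 3 of TGFB, 1 or 3 of EGF+OSM, 1 or 3 of EGF+TGFB, 3 of OSM+TGFB, and 1 or 2 of EGF+OSM+TGFB. Without EGF+TGFB replicate 1, EGF+OSM+TGFB replicate 1 or EGF+OSM+TGFB replicate 2, BMP2 alone was called.

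Other genes of the pathway came from lists of receptors, further ligands, antagonists, SMADs with BMP targets, and E proteins. Their counts are read against the shares called among all genes tested, 73.5% for EGF, 63.4% for OSM and 35.6% for TGFB. By direction, EGF called 34.9% higher and 38.6% lower, OSM 33.5% and 29.8%, and TGFB 19.9% and 15.8%. Of the receptors, 10 of 12 could be tested, and 7, 6 and 7 of the 10 were called with EGF, OSM and TGFB. EGF raised 1 and lowered 6, OSM raised 4 and lowered 2, and TGFB raised 5 and lowered 2, with median log2 fold changes of -0.54, -0.07 and 0.15 over the list against -0.07, 0.00 and -0.01 over all genes. BMPR2, a type II BMP receptor, went from 134 ± 9.11 CPM under PBS down to 88.7 ± 4.08 under EGF and up to 219 ± 12.3 under TGFB, both called (adjusted p = 1.5e-07 and 3.1e-08). ACVR1, a type I receptor, rose from 29.6 ± 1.82 to 52.9 ± 2.85 CPM with TGFB. ACVR1B, a type I receptor of activin, fell from 40.8 ± 2.14 to 25.2 ± 1.04 CPM with EGF and rose to 60.5 ± 2.96 with OSM. ACVR2A, a type II activin receptor, fell with EGF and with OSM, from 13.5 ± 0.716 to 7.21 ± 0.321 and 7.85 ± 0.430 CPM. BMPR1A, a type I BMP receptor, was called with TGFB, at 47.8 ± 1.41 against 42.6 ± 0.563 CPM in PBS (adjusted p = 0.0057).

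Of the further ligands, 7 of 14 could be tested. The calls numbered 4 for EGF (background 73.5%), 3 for OSM (63.4%) and 3 for TGFB (35.6%). EGF raised 2 and lowered 2, OSM raised 1 and lowered 2, and TGFB raised 2 and lowered 1, with median log2 fold changes of -0.53, -0.55 and -0.47 over the list, against -0.07, 0.00 and -0.01 over all genes. BMP6 rose from 0.330 ± 0.128 CPM in PBS to 1.40 ± 0.223 with EGF and 2.35 ± 0.859 with TGFB (adjusted p = 4.2e-07 and 1.1e-08). BMP7 fell from 0.509 ± 0.167 CPM in PBS to at most 0.0428 CPM on average in each of the 7 treated groups. With 1 count worth 0.0189 to 0.0348 CPM, these treated means lay near the limit of detection. GDF11, an activin-like ligand, rose from 4.91 ± 0.156 to 10.3 ± 0.156 CPM with all 3 ligands. INHA, the alpha subunit of inhibin, was at 0.278 ± 0.0545 CPM in PBS and was not called for any single ligand. Thus BMP7 and INHBB were both brought low by EGF and by OSM, but with TGFB alone BMP7 fell to 0.0407 ± 0.0497 CPM while INHBB was at 1.43 ± 0.283 CPM.

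Of the antagonists, 8 of 11 could be tested, and the calls numbered 6 for EGF (background 73.5%), 4 for OSM (63.4%) and 2 for TGFB (35.6%). EGF raised 2 and lowered 4, OSM raised 2 and lowered 2, and TGFB raised 2 while the other 6 were not called. The list's median log2 fold changes were -0.42, -0.18 and 0.26. CHRD (chordin), a secreted BMP antagonist, rose from 0.186 ± 0.0958 CPM in PBS to 3.92 ± 0.624 under OSM (adjusted p = 1.3e-08) but was at 0.302 ± 0.219 with EGF+OSM. BAMBI, a decoy receptor, rose from 10.1 ± 0.138 to 21.0 ± 1.05 CPM with TGFB and fell to 7.15 ± 0.779 with EGF and 6.55 ± 0.820 with OSM. NOG (noggin), a BMP antagonist, rose with EGF+TGFB (0.971 ± 0.218 against 0.256 ± 0.202 CPM in PBS, adjusted p = 6.9e-04) and fell with EGF+OSM (0.0252 ± 0.00190 CPM, 3 counts over the group, adjusted p = 5.0e-04). TWSG1, a modulator of BMP signalling, rose slightly with EGF, from 35.0 ± 1.30 to 44.7 ± 2.42 CPM. GREM1, also a BMP antagonist, lay between 0.105 and 0.325 CPM on average and was called in no comparison with PBS.

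All 12 genes of the list of SMADs and BMP targets could be tested, of which EGF changed 9 (background 73.5%), OSM 7 (63.4%) and TGFB 7 (35.6%). EGF raised 2 and lowered 7, OSM raised 2 and lowered 5, and TGFB raised 4 and lowered 3, with median log2 fold changes of -0.28, -0.13 and 0.17. SMAD6, an inhibitory SMAD of the BMP branch, fell from 6.96 ± 1.11 CPM in PBS to 1.39 ± 0.681 (EGF), 2.51 ± 0.461 (OSM) and 0.315 ± 0.158 (EGF+OSM), and stood at 7.63 ± 0.560 with TGFB. EGF+OSM, the lowest group of SMAD6, was also the lowest of ID2 and ID3. The list did not move as a whole there, with 2 of its 12 genes called higher and 6 lower against PBS (background 37.6% and 39.6%). SMAD7, an inhibitory SMAD induced by TGF beta, rose from 14.4 ± 1.50 to 29.0 ± 0.733 CPM with TGFB and 21.5 ± 1.27 with OSM, and SKIL, a negative regulator of SMAD activity, from 37.3 ± 3.45 to 104 ± 2.38 CPM with TGFB. SMAD9 fell with each single ligand, from 16.4 ± 0.828 to 8.85 ± 0.930 (EGF), 9.64 ± 0.204 (OSM) and 9.65 ± 0.827 CPM (TGFB). SMAD1 fell from 26.5 ± 1.86 to 20.2 ± 1.05 CPM with EGF and rose to 33.3 ± 1.85 with OSM, and SMAD5 rose from 93.1 ± 9.61 to 108 ± 1.43 CPM with EGF.

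The 3 E proteins that ID proteins bind were all tested, with median log2 fold changes of -0.20 for EGF, 0.07 for OSM and 0.34 for TGFB. TCF3 rose with each single ligand, from 89.0 ± 1.56 CPM in PBS to 138 ± 3.41 (EGF), 131 ± 7.63 (OSM) and 123 ± 6.49 CPM (TGFB). TCF4 fell with EGF and with OSM, from 36.6 ± 2.14 to 14.7 ± 0.238 and 16.7 ± 0.150 CPM, and to 11.1 ± 0.684 with EGF+OSM. TCF12 fell from 87.3 ± 2.99 to 76.0 ± 3.38 CPM with EGF and rose to 110.2 ± 5.65 with TGFB. In EGF+OSM, where ID2 and ID3 were lowest, TCF3 was therefore above its PBS level (135 ± 11.7 CPM) and TCF4 below it.

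The genes most like each of these in pattern were found by the root mean square difference of group means of log2 CPM, centred over the 9 groups, among the 12421 other genes (12422 for INHBB) with a mean of at least 1 CPM. For INHBA they were MMP9 (0.56) and MYL9 (0.92), and for INHBB CPE (0.36) and VTCN1 (0.39). FST was nearest to COL8A1 (0.60) and SERTAD4 (0.60), and BMP2 to PCDHA12 (0.24) and TIMP2 (0.26). ID2 was nearest to PPL (0.28) and BLNK (0.29), and ID3 to ZFHX2 (0.25) and P3H2 (0.32). The group means spanned 5.51 log2 units for INHBA and 2.28 for BMP2, so these unscaled differences cannot be ranked between members.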

How the data were processed

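Libraries of polyadenylated RNA were made with a stranded kit, per the labels' protocols. The authors deposited a table of estimated counts per gene, whole numbers. The submitters' processing notes name Trim Galore 0.4.3, cutadapt 1.10, FastQC 0.11.5, kallisto 0.46.2, R 3.5.0 and the builds GRCh38.p5 and hg38, without roles. Rows without a symbol (0.324% of counts) kept their identifier.

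Rows sharing a symbol were summed. Genes passing filterByExpr were scaled by TMM (factors 0.867 to 1.12) and fitted with 9 group means over 27 libraries (18 residual degrees of freedom) with edgeR 4.0.16 in R 4.3.3 (glmQLFit robust, glmQLFTest, prior count 0.125). Standard errors come from the log2 fold change and its F statistic. Replicates differed beyond sampling noise (chi-square per degree of freedom 6.87 to 34.1), so each library counted once. Intervals and floors cover counting error or replicate spread only. Coordinates are GENCODE v44, GRCh38. The test was checked on simulated data.

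Members and pathway lists were chosen with earlier results of these data known. Named genes are all members, a fixed choice from each list, and the 2 genes nearest in pattern for members spanning at least 2 log2 units. Alternatives were 2 other scalings, no filter, DESeq2 1.42.0, a replicate block, unsummed rows, fits on the contrast's groups only, and leaving out each library.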

Additional observations from a re-analysis of the deposited data

Results flagged for a closer look

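FST is flagged because TGFB moved it in opposite directions in different backgrounds. Against PBS the effect of TGFB was a log2 fold change of 3.20, with all TGFB libraries above all PBS libraries. On EGF+OSM it was -2.19, with all libraries of the 3 ligands below all EGF+OSM libraries. The difference between these effects was -5.38 ± 0.33 on the log2 scale (SE), with an adjusted p of 9.1e-12 in edgeR, and ran from -5.67 to -5.13 over the 34 alternatives. This contrast was added after the values of FST had been seen. No group of 3 libraries was screened for single outlying samples, since the rule used needs at least 4.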

How the results depend on the processing

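Of 124 called values of the members, 101 kept their call and direction in all 34 alternatives, 23 lost the call in at least 1, and 0 changed direction. Of 20 uncalled values given in the report, 6 were called in at least 1. Without a filter on low counts, 1 member was called in the 3-way departure. Over all genes that contrast called 607 genes, 1247 with the replicate block and 915 with DESeq2. Leaving out each library in turn gave 3 to 6 members called for TGFB against PBS, 2 to 4 for PBS against T0, 3 to 6 for EGF added to OSM+TGFB and 1 to 3 for the 3-way departure. With all libraries, 5 of the 9 tested members were called for EGF added to OSM+TGFB (background 52.2%). BMP2 with TGFB and ID3 in the 3-way departure were the calls most often lost among the single-ligand and departure results named here (25 and 14 of 34).

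Uncalled log2 values near 0 changed sign. With upper-quartile scaling these were BMP4 with EGF (-0.0042), FSTL3 with OSM (-0.0035), ID1 with OSM (-0.022) and FSTL3 with EGF+OSM (-0.0042). FST, for OSM added to EGF, was -0.0081 with the groups of the contrast alone. Leaving out each library in turn gave ranges of -0.069 to 0.28 for BMP4 with EGF, -0.073 to 0.13 for ID1 with OSM, -0.032 to 0.20 for FSTL3 with EGF+OSM and -0.47 to 0.057 for INHBA with EGF+OSM. The ranges were -0.20 to 0.024 for BMP2 with EGF+TGFB, -0.095 to 0.21 for INHBA in PBS against T0, -0.089 to 0.14 for FST with OSM added to EGF and -0.25 to 0.049 for the INHBA departure in OSM+TGFB.

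Replicate numbers were not taken as pairing: deviations of 108 pairs of same-numbered libraries correlated at -0.0265 to 0.178, 23 of them over 0.1, although 26 of 27 libraries correlated best with their own number. With the replicate block, FST was called for OSM against PBS (log2 fold change 0.68, adjusted p = 0.011) and lay below the sum of the single effects in EGF+OSM (-0.68, 0.040), and ID1 was called for PBS against T0 (0.34, 0.048). No other member's call given here changed under the block. The cause of these changes was not tested. Depth limits INHBB, BMP4 and ID4, and also BMP7 in the treated groups. Across the libraries 1 count was worth 0.0189 to 0.0348 CPM.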
